A study of Mus musculus with 6 samples.

Results

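The uridine diphosphate glucuronosyltransferases (UGT), sulfotransferases (SULT), carboxylesterases (CES) and NAT8 acetyltransferases of mouse liver were compared between Cyp2e1-/- (knockout) and Cyp2e1+/+ (wild type) animals. The families were chosen with earlier results of these data known. Their genes were taken by symbol alone, as those whose names begin with Ugt1a, Ugt2, Ugt3, Sult, Ces1, Ces2, Ces3 or Nat8. The choice by symbol used no values and gave 54 of the 15960 genes in the expression table. They were 8 UGT1A, 10 UGT2, 2 UGT3, 10 SULT, 6 CES1, 7 CES2, 2 CES3 and 9 NAT8 genes. Of these, 37 reached at least 1 FPKM (fragments scaled to transcript length and sequencing depth) in at least 3 of the 6 samples and were tested. Both genotypes were on the C57BL/6 strain and 22 weeks old, and both had been kept on a high-fat diet for 14 weeks. Each genotype had 3 liver samples, and the expression table held no samples on another diet. The sources used here do not give the sex of the animals or the construction of the deleted allele.

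These families carry out the second stage of the handling of foreign and endogenous lipophilic compounds. UGT enzymes of the endoplasmic reticulum transfer a sugar, mostly glucuronic acid, to bilirubin, steroids, bile acids and drugs. Cytosolic SULT enzymes transfer sulfate to phenols, steroids and bile acids. CES enzymes cleave esters and amides, including prodrugs and, for several mouse members, stored triacylglycerol. NAT8 is known in human as the enzyme that N-acetylates cysteine conjugates, the closing step by which glutathione adducts become mercapturic acids for excretion. CYP2E1, the cytochrome P450 removed in the knockout, oxidizes small molecules such as ethanol, acetone and paracetamol upstream of these reactions.

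The samples summed to between 562590 and 624264 FPKM, and the targeted gene Cyp2e1 stood at 247 to 271 FPKM in the knockout samples and at 5942 to 7427 FPKM in the wild type samples. All differences are on the log2(FPKM + 1) scale, with the wild type mean subtracted from the knockout mean, and this scale shrinks the differences of genes with low FPKM. A gene is said to rise or fall where its Benjamini-Hochberg adjusted p from limma over 9968 tested genes was under 0.05. By that rule 0.762% of all tested genes changed, 0.472% rising and 0.291% falling. Replicate 1 of both genotypes stood apart from replicates 2 and 3. The standard deviation of log2 differences over genes was 0.25 between knockout replicates 2 and 3 and 0.239 between wild type replicates 2 and 3, against 0.366 to 0.404 for pairs with replicate 1 of the same genotype. Results are therefore also given without replicate 1 of both genotypes, where 11.9% of all tested genes were called. Those samples were left out for their distance from the others, which lowers the spread that the test uses. The p-values and calls of that fit are favoured by this choice of samples and serve as description only.

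Among the 37 tested genes 1 rose, the acetyltransferase gene Nat8f5, and 1 fell, the sulfotransferase gene Sult5a1. The knockout mean of Nat8f5 was 9.32 times the wild type mean, and that of Sult5a1 was 0.428 times the wild type mean. No tested UGT or CES gene passed the test. The estimated difference was below 0 for 28 of the 37 genes, or 75.7%, where it was below 0 for 55.8% of all tested genes. Its median was -0.18, against -0.03 over all tested genes, and it ranged from -1.04 to 2.11. For 11 of the 37 genes the values of the genotypes did not overlap, 2 with the knockout higher and 9 with it lower. That is 29.7% of them, against 15.4% of all tested genes, of which 5.32% had the knockout higher and 10.0% had it lower. At an unadjusted limma p under 0.05 stood 9 of the 37 genes, or 24.3%, 2 with estimates above 0 and 7 below. The share over all tested genes was 9.93%, with 4.04% above and 5.89% below 0. The RNA is from whole liver, where fewer cells of a type and less RNA per cell cannot be told apart.

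**Figure D1:**
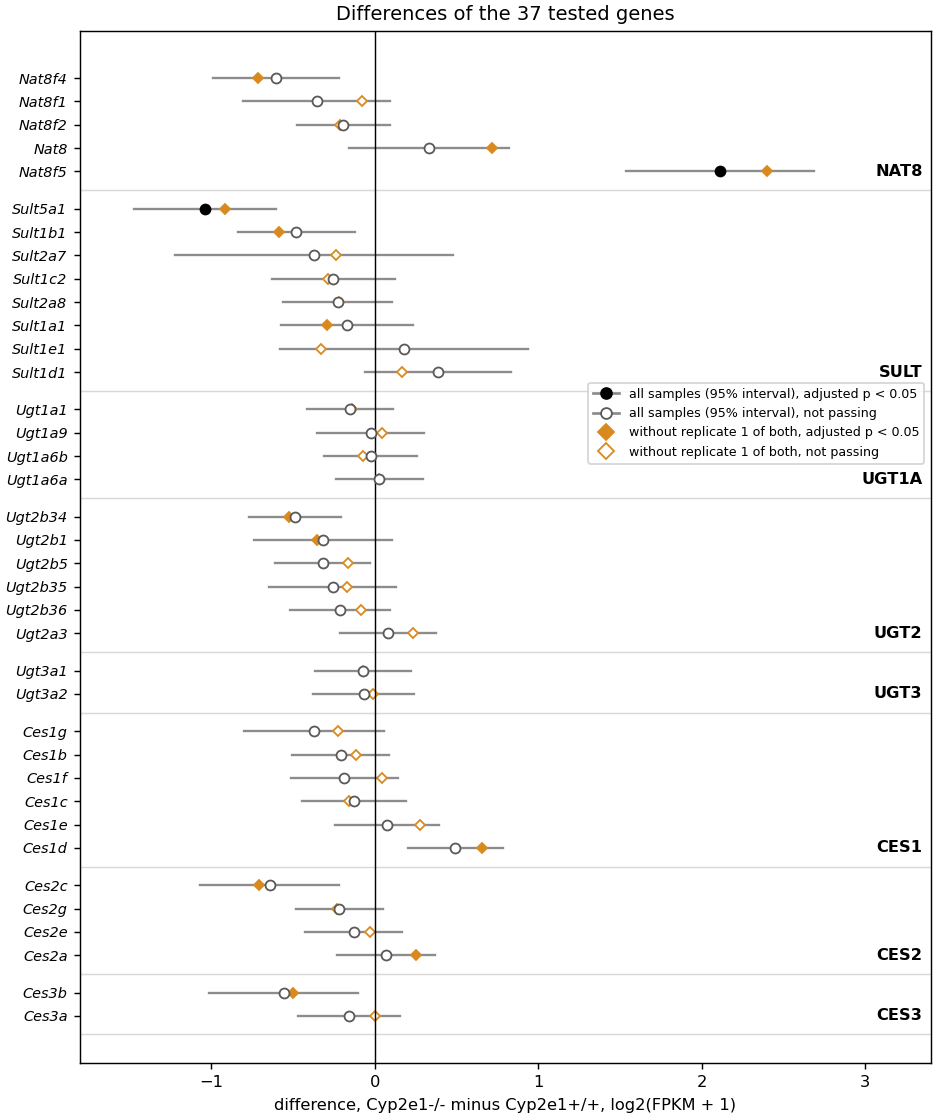
Knockout minus wild type difference, log2(FPKM + 1), for the 37 tested genes, by family, with the 95% interval from limma (grey line), filled circles for genes that passed the test and diamonds for the fit without replicate 1 of both genotypes. Nat8f5 at 2.11 and Sult5a1 at -1.04 stand at the ends of the range, and 28 of the 37 estimates lie below 0.

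**Figure D2:**
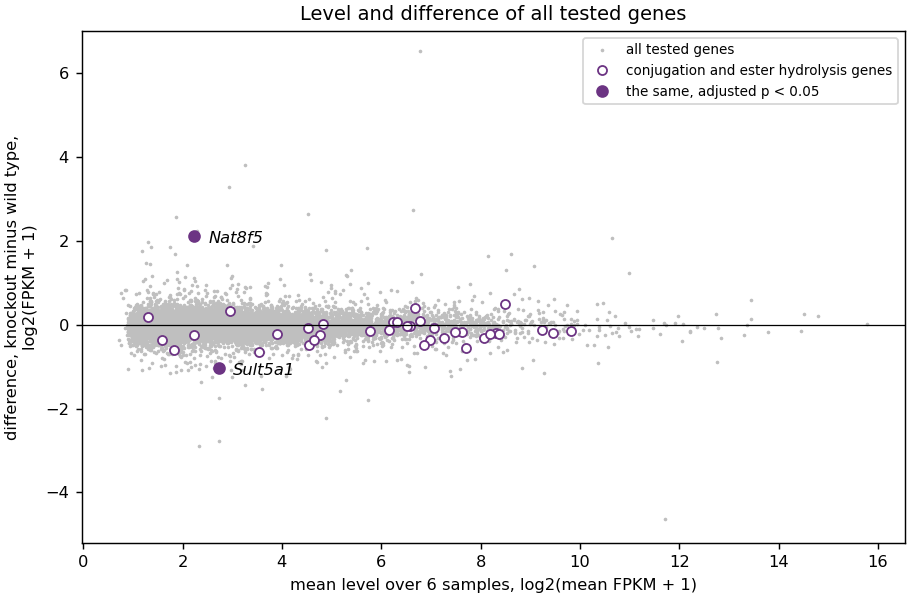
Level (x axis) and knockout minus wild type difference (y axis) on log2 scales for the 9968 tested genes, with the 37 genes of the conjugating and ester hydrolysing families marked. Nat8f5 is the one family member with a difference over 2, and most of the other members lie within 1 log2 unit of 0.

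Nat8f5 (gene 69049) lies on the minus strand of chr6:85817218-85820972 (GRCm38.p6), within the Nat8 cluster. The bases before its RefSeq start are shown because it was the one gene to rise, beside those of Nat8f2, the NAT8 gene with the highest FPKM. Both are given 5′ to 3′ on the gene's strand, and capitals mark the letter matches found. The windows are chr6:85820973-85821222 for Nat8f5 and chr6:85869159-85869387 for Nat8f2, the second without bases that an annotated exon covers.
Nat8f5: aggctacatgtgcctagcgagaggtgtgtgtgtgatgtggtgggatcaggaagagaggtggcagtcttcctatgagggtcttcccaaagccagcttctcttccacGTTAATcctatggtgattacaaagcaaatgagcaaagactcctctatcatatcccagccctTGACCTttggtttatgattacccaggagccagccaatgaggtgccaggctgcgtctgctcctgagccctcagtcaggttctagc
Nat8f2: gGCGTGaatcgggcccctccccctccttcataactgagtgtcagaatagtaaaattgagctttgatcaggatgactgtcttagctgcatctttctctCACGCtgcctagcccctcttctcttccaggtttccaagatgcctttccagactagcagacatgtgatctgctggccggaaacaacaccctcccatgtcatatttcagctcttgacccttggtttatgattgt
The motifs searched on both strands were TATAAA (the TATA box), GTTAAT (a core of the HNF1 site), AGGTCA (the nuclear receptor core), TTGCNNAA (C/EBP), GCGTG (the AHR core), TGACNNNGC (NRF2), TTCNNNGAA (STAT5) and TGTTTAC (FOXA). The direct repeats of AGGTCA spaced by 1 and by 4 bases were searched as well and overlap with single AGGTCA matches. The Nat8f5 window held GTTAAT at 145 bases before the start and TGACCT, which is AGGTCA on the other strand, at 84 bases before it. GTTAAT was found in 6.43% of the 32851 RefSeq windows of 250 bases and in 11 of the 48 windows listed for 43 of the 54 genes. AGGTCA was found in 14.0% of all windows and in 15 of the 48. Within the NAT8 family Nat8f4 also had an AGGTCA match and Nat8 a GTTAAT match, so neither motif was particular to Nat8f5. The Nat8f2 window held GCGTG at 249 bases before the start and CACGC, the same letters on the other strand, at 153, a motif found in 28.2% of all windows and in 6 of the 48. Motifs were searched and windows aligned over the full 250 bases, which for Nat8f2 include the exon-covered bases next to the start that are not printed. A local alignment of the full windows joined 65 positions with 53 identical bases, between 107 and 43 bases before the Nat8f5 start and between 65 and 1 before the Nat8f2 start. In that stretch the Nat8f2 sequence carried T6C against the Nat8f5 letters TGACCT, counted from 1 at the 5′ end of those letters. These matches describe letters and are not evidence of binding.

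Nat8f5 was measured at 3.79, 8.80 and 7.44 FPKM in knockout replicates 1, 2 and 3 and at 0.66, 1.02 and 0.47 FPKM in the wild type replicates. Every knockout value lay above every wild type value, and the knockout value of replicate 1 was the lowest of its group. The means were 6.68 ± 2.59 FPKM (SD, n = 3) in knockout and 0.717 ± 0.279 FPKM (SD, n = 3) in wild type. The difference was 2.11 (SE 0.26, 95% interval 1.54 to 2.68, limma adjusted p = 0.0043). Without replicate 1 of both genotypes it was 2.40 (limma adjusted p = 0.00014), and between the samples of replicate 1 alone it was 1.53. Nat8f5 met the 1 FPKM filter in its 3 knockout samples, so it could enter the test through the group where it was high. With no filter on low values the limma adjusted p was 0.051. These levels stand for about 41.3 to 72.9 fragments per knockout sample and 4.0 to 8.9 per wild type sample. The estimate takes the Nat8f5 transcript length of 986 bases, less 100 for the ends, and the depth estimated from steps in low values. Of its 31-base words 13.5% also occurred in transcripts of other genes, 11.1% in Nat8f6. A Nat8f6 transcript begins in the first exons of Nat8f5 and shares 135 exonic bases on the same strand, and Nat8f6 itself was at 0.08 to 0.62 FPKM in the 6 samples.

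The other tested NAT8 genes did not pass the test. Nat8f2 was the most abundant, at 294 ± 24.0 FPKM (SD, n = 3) in knockout and 337 ± 33.9 in wild type, a difference of -0.19. Nat8f1 measured 73.7, 130.1 and 131 FPKM in knockout and 139, 138 and 137 FPKM in wild type. Knockout replicate 1 stood well below the other 5 samples, and the groups did not overlap. The difference was -0.35 (SE 0.20, limma adjusted p = 0.63) and was -0.08 without replicate 1. Its exons overlap those of Tprkb, a subunit of a tRNA-modifying complex, over 478 bases on the opposite strand, and Tprkb itself was at 52.4 to 54.6 FPKM in knockout and at 71.7 to 80.7 in wild type. The use of strand in counting is unknown, so reads of Nat8f1 and Tprkb cannot be told apart in that overlap. Nat8, the mouse counterpart of the human cysteine conjugate acetyltransferase gene, was at 7.71 ± 2.13 FPKM (SD, n = 3) in knockout and 5.87 ± 1.53 in wild type, a difference of 0.33 (limma adjusted p = 0.68). For Nat8 the difference was 0.72 without replicate 1 of both genotypes (limma adjusted p = 0.011) and -0.44 between the samples of replicate 1 alone. Nat8f4 measured 1.76, 1.80 and 1.82 FPKM in knockout and 2.61, 4.27 and 3.02 FPKM in wild type. The groups did not overlap, and the difference of -0.60 (SE 0.17) had a limma adjusted p of 0.21. By coding sequence Nat8f1 was nearest to Nat8f5, with 81.3% of aligned bases identical, followed by Nat8 at 80.1%, Nat8f2 at 77.9% and Nat8f4 at 77.8%. Of these 4 genes Nat8 had an estimate above 0 and the other 3 had estimates below 0.

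**Figure D3:**
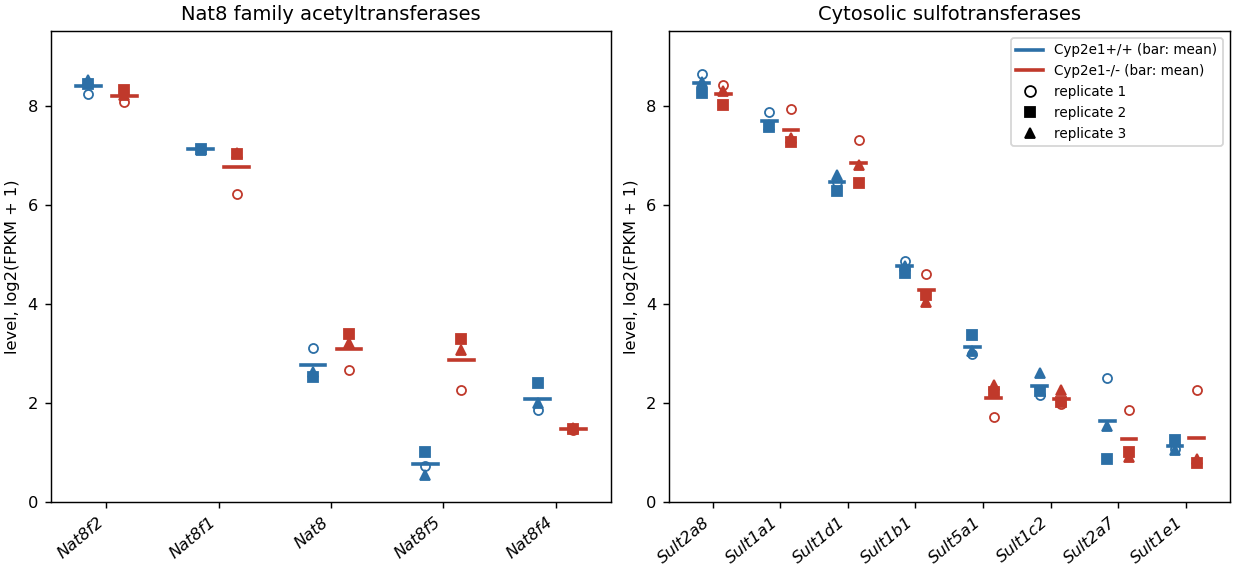
Level in each sample on the log2(FPKM + 1) scale for the tested NAT8 and SULT genes, with blue for wild type, red for knockout, open circles for replicate 1, squares and triangles for replicates 2 and 3, and bars for group means. The knockout points of Nat8f5 lie above, and those of Sult5a1 below, all wild type points of the same gene.

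Sult5a1 (gene 57429), a cytosolic sulfotransferase family gene on the minus strand of chr8:123142843-123158914, was the one gene to fall. It measured 2.30, 3.65 and 4.17 FPKM in knockout replicates 1, 2 and 3 and 6.99, 9.40 and 7.24 FPKM in the wild type replicates. No knockout value reached the lowest wild type value. The means were 3.37 ± 0.965 FPKM (SD, n = 3) and 7.88 ± 1.33 FPKM (SD, n = 3), a difference of -1.04 (SE 0.20, 95% interval -1.47 to -0.60, limma adjusted p = 0.048). Without replicate 1 of both genotypes the difference was -0.92 (limma adjusted p = 0.0073). The call was near the threshold and was lost under several settings, among them a pseudocount of 0.5 (limma adjusted p = 0.054) and the loss of wild type replicate 2 (limma adjusted p = 0.215). Its sequence was little shared, with 4.54% of its 31-base words found in other genes and 54.4% to 59.9% coding identity to the other SULT genes.

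Of the other 7 tested SULT genes none passed the test. Sult2a8, a bile acid and steroid sulfotransferase of mouse liver, was at 302.5 ± 42.2 FPKM (SD, n = 3) in knockout and 353.8 ± 47.4 in wild type. Sult1a1, the phenol sulfotransferase, was at 185.8 ± 50.5 FPKM and 205 ± 23.4 FPKM. Sult1b1, which acts on thyroid hormones and phenols, measured 23.4, 17.1 and 15.5 FPKM in knockout and 28.2, 23.8 and 26.2 FPKM in wild type. The Sult1b1 groups did not overlap, with the highest knockout value just under the lowest wild type value. Its difference was -0.48 (SE 0.16, limma adjusted p = 0.32), and without replicate 1 it was -0.59 (limma adjusted p = 0.0086). Sult1d1, a catecholamine sulfotransferase in mouse, measured 156, 85.8 and 110 FPKM in knockout and 87.6, 77.0 and 96.7 FPKM in wild type. The knockout sample of replicate 1 was the highest, and the groups overlapped. Sult1e1, the estrogen sulfotransferase, was just inside the filter, at 3.81, 0.72 and 0.82 FPKM in knockout and 1.10, 1.38 and 1.07 FPKM in wild type. Knockout replicate 1 was again high, and the other knockout values lay below all wild type values. Sult1c2 was at 3.27 ± 0.458 FPKM (SD, n = 3) in knockout and 4.11 ± 0.857 in wild type, and Sult2a7 ranged from 0.84 to 4.65 FPKM over the 6 samples.

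None of the 4 tested UGT1A genes passed the test, and their median difference was -0.02. They arise from 1 locus on chromosome 1, where each gene has its own first exon and all share the exons after it, 1311 exonic bases in common. Of the 31-base words of the 4 tested genes, 67.8% to 96.8% were shared with other genes, and the split of reads among them is uncertain. Ugt1a1, the bilirubin-conjugating enzyme, was at 50.7 ± 3.25 FPKM (SD, n = 3) in knockout and 56.4 ± 4.10 in wild type, a difference of -0.15 (limma adjusted p = 0.75). Ugt1a6b and Ugt1a9, which act on phenols, were at 90.7 ± 11.4 and 94.6 ± 15.5 FPKM in knockout and at 91.9 ± 5.82 and 95.5 ± 8.26 FPKM in wild type. The fourth tested gene, Ugt1a6a, differed by 0.03. The summed FPKM of the 8 UGT1A genes was 264.3 to 269.6 in knockout and 270.8 to 274.7 in wild type. These sums, not scaled to the total FPKM of each sample, did not overlap, and their means differed by a factor of 0.976. As a share of all FPKM the family ranged from 0.0437% to 0.0488%, with both ends in wild type samples, so the shares overlapped. Ugt1a5 and Ugt1a10 lay just outside the filter, with means over the 6 samples of 1.18 and 0.875 FPKM.

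The UGT2 genes, which conjugate steroids, bile acids and fatty acids, lie together on chromosome 5. Of the 6 tested, 5 had estimates below 0, with a median difference of -0.29, and none passed the test. Ugt2b34 measured 88.9, 93.2 and 103 FPKM in knockout and 119, 136 and 148 FPKM in wild type. The groups did not overlap, and the difference was -0.49 (SE 0.13, limma adjusted p = 0.16) or, without replicate 1, -0.53 (limma adjusted p = 0.0043). Ugt2b5 measured 218, 254 and 239.7 FPKM in knockout and 337, 265 and 288 FPKM in wild type, also without overlap. Its difference was -0.32 (limma adjusted p = 0.45), and it was -0.16 without replicate 1. Ugt2b36 was at 267 ± 3.96 FPKM (SD, n = 3) in knockout and 313 ± 50.9 in wild type, and Ugt2b1 was at 134.8 ± 24.4 and 169 ± 36.7 FPKM. The other 2 tested genes, Ugt2b35 and Ugt2a3, differed by -0.26 and 0.08. The summed FPKM of the family was 791 to 920.0 in knockout and 975 to 1085 in wild type, a ratio of means of 0.832 with no overlap. The 2 UGT3 genes, known in human to use sugars other than glucuronic acid, differed by -0.07 each. Ugt3a1 was at 21.4 ± 2.09 FPKM in knockout and 22.6 ± 2.03 in wild type, and Ugt3a2 was at 129 ± 18.6 and 135 ± 11.2 FPKM.

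By summed FPKM the carboxylesterase families CES1 and CES3 were the most abundant of these families. CES2, with mean sums of 169.8 FPKM in knockout and 179.9 in wild type, lay below UGT1A, UGT2, SULT and NAT8. CES1 genes summed to 1910 ± 79.7 FPKM (SD, n = 3) in knockout and 1959 ± 117 in wild type, and none of the 6 passed the test. Ces1d, a triacylglycerol hydrolase that supplies lipid for lipoprotein secretion, measured 371, 441 and 447 FPKM in knockout and 329, 278 and 285 FPKM in wild type. It was, with Nat8f5, one of the 2 genes whose knockout values all lay above the wild type values. Its difference was 0.49 (SE 0.13, limma adjusted p = 0.17), and without replicate 1 it was 0.66 (limma adjusted p = 0.00022). Ces1b measured 553, 705 and 694 FPKM in knockout and 728, 747 and 766 FPKM in wild type, without overlap, a difference of -0.21. Ces1c, the esterase secreted into mouse plasma, was at 575 ± 84.0 FPKM (SD, n = 3) in knockout and 625 ± 63.3 in wild type. The other 3 tested CES1 genes, Ces1e, Ces1f and Ces1g, differed by 0.08, -0.18 and -0.37. CES2 genes had 4 of 7 tested, and none passed. Ces2c, of the family that hydrolyses acylglycerols and drug esters, measured 6.60, 9.38 and 8.27 FPKM in knockout and 9.78, 15.1 and 15.0 FPKM in wild type. Its groups did not overlap, and its difference was -0.64 (SE 0.19, limma adjusted p = 0.24), with 50.2% of its 31-base words also found in the pseudogene Ces2d-ps. Ces2g measured 12.7, 13.3 and 12.2 FPKM in knockout and 14.6, 15.3 and 15.1 FPKM in wild type, without overlap, a difference of -0.22. Ces2a, the most abundant of the family, was at 81.2 ± 9.54 FPKM (SD, n = 3) in knockout and 77.3 ± 8.22 in wild type, and Ces2e was at 67.1 ± 3.01 and 73.9 ± 11.3 FPKM.

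The CES3 genes include Ces3a, which had the highest FPKM of all 54 genes, at 712, 935 and 913 FPKM in knockout and 992, 921 and 923 FPKM in wild type. The groups overlapped, with knockout replicate 1 the lowest, and the difference was -0.16 (limma adjusted p = 0.79). Ces3b measured 121, 193 and 190.4 FPKM in knockout and 193, 272 and 271 FPKM in wild type. In each genotype replicate 1 was the lowest, and the highest knockout value just passed the lowest wild type value. The difference was -0.56 (SE 0.20, limma adjusted p = 0.38) and -0.50 without replicate 1 (limma adjusted p = 0.0012). Ces3a and Ces3b share 41.9% and 35.6% of their 31-base words with other genes, so their split is uncertain. Over all 37 tested genes, 16 had at least 20% of their words in common with another gene.

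**Figure D4:**
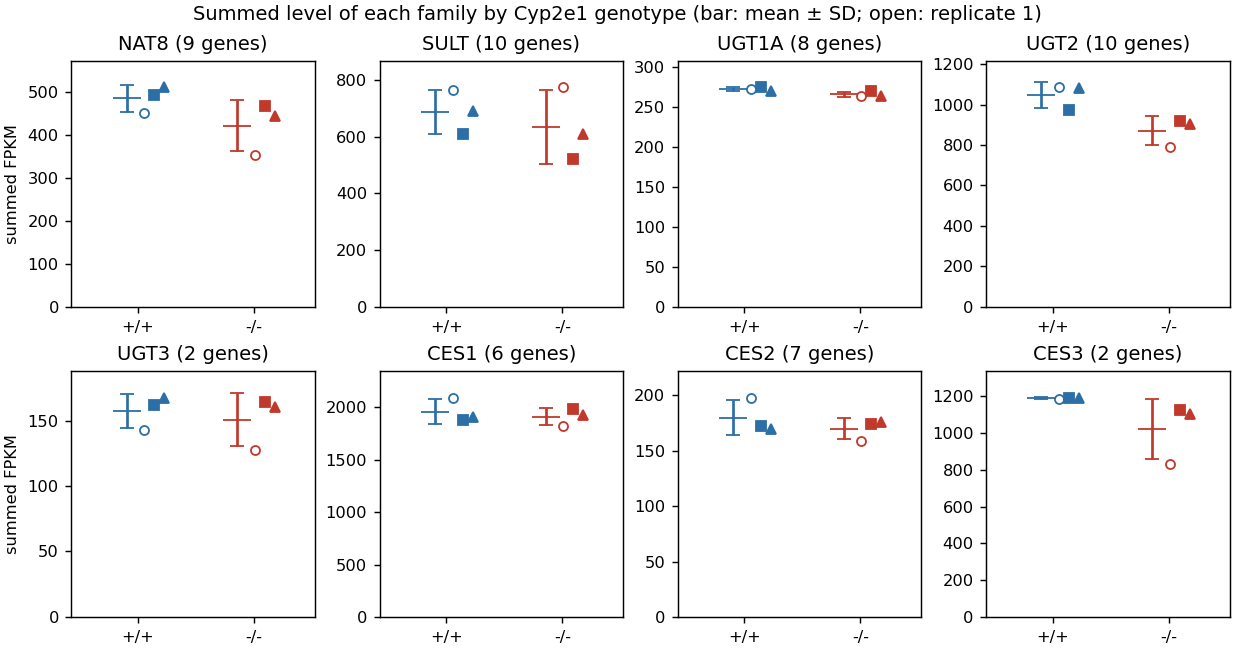
Summed FPKM of each family in each sample, with symbols for samples (open for replicate 1) and bars for the mean ± SD, on axes that start at 0. The UGT2 sums were 791 to 920.0 in knockout and 975 to 1085 in wild type, and the CES3 sum of knockout replicate 1 was the lowest of the 6.

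Without replicate 1 of both genotypes, 12 of the 37 genes passed the test, 4 rising and 8 falling, or 32.4% against 11.9% of all tested genes. Of all tested genes 6.92% then rose and 4.95% fell. The 4 that rose were Nat8f5, Ces1d, Nat8 and Ces2a, and the 8 that fell were Sult5a1, Sult1b1, Sult1a1, Ugt2b34, Ugt2b1, Ces2c, Ces3b and Nat8f4. No UGT1A or UGT3 gene was among the 12. Only 2 samples per genotype remained in that fit, and they were kept for their smaller spread, so these calls are not independent support. Between the samples of replicate 1 alone the difference was -0.30 for Ces2a, -0.44 for Nat8 and 0.07 for Sult1a1, opposite in sign to that fit. For the rest of the 12 genes it had the same sign. A difference between replicate 1 and the other replicates in the response was not tested.

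**Figure D5:**
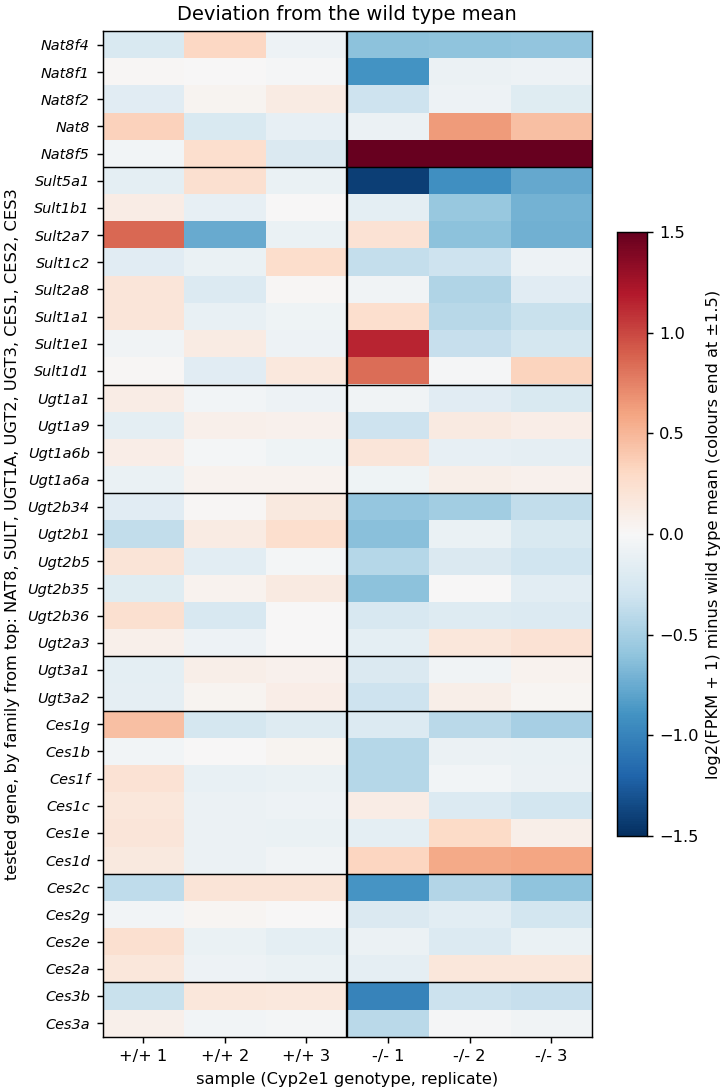
Deviation of each of the 37 tested genes (rows) from its wild type mean on the log2(FPKM + 1) scale in each of the 6 samples (columns), red for higher and blue for lower, with colours ending at 1.5 either way. Knockout replicate 1 stands apart from knockout replicates 2 and 3 for several genes, among them Nat8f1, Sult1d1 and Sult1e1.

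The 17 genes that were not tested had means over the 6 samples of 0.005 to 1.18 FPKM, with Ugt1a5 the highest. They were Ces2b, Ces2d-ps, Ces2h, Nat8f3, Nat8f6, Nat8f7, Nat8l, Sult2a1, Sult4a1, Ugt1a10, Ugt1a2, Ugt1a5, Ugt1a7c, Ugt2a1, Ugt2a2, Ugt2b37 and Ugt2b38. With no filter on low values all 54 genes were tested, and none of them passed.

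Genes that supply the conjugating enzymes with their cosubstrates were set beside them, in lists chosen with earlier results of these data known. All 7 tested genes of UDP-glucuronate supply had estimates below 0 (median -0.13), and none passed. Ugp2, which makes UDP-glucose, measured 67.2, 88.0 and 84.5 FPKM in knockout and 117, 128 and 139 FPKM in wild type, without overlap, a difference of -0.68 (limma adjusted p = 0.067), while Pgm2, a phosphoglucomutase gene, differed by -0.01. Of the 8 tested sulfate activation genes none passed, with 4 estimates above and 4 below 0 and a median of 0.01. The sulfate transporter gene Slc26a1 differed by -0.07 and the sulfite oxidase gene Suox by 0.06. Of 13 tested mercapturate pathway genes none passed, with 3 above and 10 below 0, and the most abundant were Lap3, an aminopeptidase gene, at -0.17 and Gclm, a subunit of glutamate cysteine ligase, at -0.05. Among 19 tested genes of amino acid, acetyl and methyl conjugation 1 fell, Keg1, a relative of the glycine acyltransferase gene. Keg1 measured 50.1, 66.6 and 65.1 FPKM in knockout and 93.7, 132 and 134 FPKM in wild type (difference -0.96, SE 0.17, limma adjusted p = 0.037). None of the 10 deconjugating enzyme genes passed, with the aminoacylase gene Acy1 at -0.05 and the bleomycin hydrolase gene Blmh at -0.25. None of 17 further ester and epoxide hydrolase genes passed either, with the soluble epoxide hydrolase gene Ephx2 at 0.26 and the paraoxonase gene Pon1 at -0.32. Without replicate 1 of both genotypes 2 of the UDP-glucuronate supply genes fell, 1 sulfate activation gene rose and 1 mercapturate gene rose. In the same fit 1 gene of amino acid, acetyl and methyl conjugation rose and 4 fell, 1 deconjugating enzyme gene rose, and 3 further hydrolase genes rose and 1 fell. The shares over all tested genes were 6.92% rising and 4.95% falling in that fit, and 0.472% and 0.291% with all samples.

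Regulators of these families showed no call among 22 tested genes. Nr1i3, the constitutive androstane receptor CAR, was at 103 ± 10.5 FPKM (SD, n = 3) in knockout and 84.9 ± 10.8 in wild type, a difference of 0.28, and the C/EBPα gene Cebpa differed by 0.27. Among regulators 5 rose and 2 fell in the fit without replicate 1, with Nr1i3 at 0.45 (limma adjusted p = 0.0067) and Cebpa at 0.63 (limma adjusted p = 0.0012). Between the samples of replicate 1 alone Nr1i3 differed by -0.07 and Cebpa by -0.43, opposite in sign to that fit. Of 17 tested targets of CAR and the pregnane X receptor, 2 rose and none fell, with 9 estimates above 0, 8 below and a median of 0.08. When replicate 1 was left out of both genotypes, 7 of them rose and 4 fell. Cyp2b10, the classical CAR target, measured 26.2, 20.7 and 18.5 FPKM in knockout and 5.24, 9.03 and 8.45 FPKM in wild type, a difference of 1.43 (SE 0.20, limma adjusted p = 0.011). Gadd45b, a stress-response gene, differed by 1.14 (limma adjusted p = 0.037). Of 13 tested targets of the aryl hydrocarbon receptor and NRF2 none passed, with 2 estimates above 0, 11 below and a median of -0.30. Cyp1a2, a P450 induced through the aryl hydrocarbon receptor, differed by -0.14, and the glutathione transferase gene Gstm1 by -0.36. Of these 13 genes 5 fell and none rose without replicate 1. Of 16 tested male-biased liver genes 1 rose, the fatty acid elongase gene Elovl3, with a limma adjusted p of 0.0061. Another 3 fell, the steroid dehydrogenase gene Hsd3b5 (-1.81), the nudix hydrolase gene Nudt7 (-0.84) and the complement gene C8b (-1.09). Of 5 tested female-biased genes Acot3 rose by 0.95 (limma adjusted p = 0.045). In the fit without replicate 1, 5 male-biased genes rose and 9 fell, and 1 female-biased gene rose and 2 fell. The shares over all tested genes were 0.472% rising and 0.291% falling with all samples, and 6.92% and 4.95% without replicate 1. These lists were chosen with earlier results of these data known, so their counts are not an independent result.

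Markers of the cell types of liver were read beside the families. The 7 hepatocyte markers had 6 estimates above 0 with a median of 0.32, and none passed. The 6 macrophage markers had 5 estimates below 0 with a median of -0.49, none passed, and their sum was 56.6 to 108.5 FPKM in knockout and 107 to 119.9 FPKM in wild type. The cholangiocyte markers summed to 18.9 to 21.7 FPKM in knockout and 25.4 to 32.4 in wild type, nearly all of it Spp1, which is also made by other cells. Stellate cell markers summed to 16.9 to 18.2 and 17.4 to 19.0 FPKM, and endothelial markers to 51.6 to 71.5 and 47.6 to 65.1 FPKM. Of markers of other organs, the kidney marker Lrp2 was at 0.01 to 0.08 FPKM. The intestinal markers were at 0 to 0.1 FPKM for Vil1 and at 46.5 to 82.7 FPKM for Fabp2, and the pancreatic markers at 0 to 0.07 FPKM for Pnlip and at 21.4 to 44.2 FPKM for Cela1. The genotypes overlapped for Fabp2 and Cela1. Leaving out replicate 1 of both genotypes, 4 of the 7 hepatocyte markers rose, 5 of the 6 macrophage markers fell, and Spp1 and 1 of the 5 endothelial markers fell. In that fit 6.92% of all tested genes rose and 4.95% fell. Of these 5 macrophage markers, Adgre1, Cd5l and Csf1r differed by 0.34, 0.11 and 0.09 between the samples of replicate 1 alone. Cd68 and Clec4f differed by -0.36 and -0.17 there. The part of these cell types in the results was not tested.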

How the data were processed

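Liver RNA of 6 samples, 3 per genotype by the labels, was sequenced from TruSeq libraries of total RNA, per the labels' protocols. HISAT and the build mm10 come from the submitters' processing notes. The deposited values are FPKM per gene, per the file headers. For the program that made them, its annotation and its use of strand the sources used here give nothing.

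As no counts were held, limma 3.58.1 (R 4.3.3; lmFit, eBayes with trend) was run on log2(FPKM + 1) over genes reaching 1 FPKM in 3 or more samples, with Benjamini-Hochberg adjustment over all of them. The fit was tested on simulated data with independent noise for each gene and sample. That simulation did not include the distance of replicate 1 from the other replicates, so it does not cover that feature of these data. The members and lists were chosen with earlier results of these data known. Named members are those past the threshold, up to 3 per family by FPKM, and up to 2 rises and 2 falls per family among those without overlap. For each companion list they are the called genes, or the 2 of highest FPKM. Sult1e1, Sult1c2, Sult2a7, Ces1e, Ces1f, Ces1g, Ugt2b35, Ugt2a3, Nat8f6, Ugt1a5 and Ugt1a10 were named after their values were seen. The same holds for Tprkb, Lrp2, Vil1, Pnlip, Adgre1, Cd68 and Csf1r.

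Depth was estimated from steps in low FPKM values. Each sample was given the depth that made the most values whole to within 0.15 of a step, 74.5% to 77.6%. A depth fixed beforehand would give 30% by chance, and the chance share for the best depth was not computed. The depth came to about 12.3 M fragments for knockout replicate 1 and 8.9 to 9.8 M for the others. No count test was run on these. Nothing in the labels says that samples came from separate animals, so the p-values cover only the variation among these libraries, which may be technical. Deviations of same-numbered samples from their group means correlated at 0.30, 0.198 and 0.157 for replicates 1, 2 and 3. These are over the limit of 0.1 for treating the numbers, which come from the titles, as pairs. Of the unlike-numbered pairs, knockout replicate 3 and wild type replicate 2 gave 0.212, above the values for replicates 2 and for replicates 3. The others gave -0.298 to 0.0307. Deviations within a group are tied to each other by its mean, so these correlations are not independent. The main p-values come from the fit without pairs, and the fit with the number as a block is given below. Positions, shared 31-base words and coding identity came from GENCODE and RefSeq (GRCm38.p6) with Python 3.11.15 and Biopython 1.88. Alternatives changed the pseudocount, filter, scaling, weights, trend, block and samples.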

Additional observations from a re-analysis of the deposited data

How the results depend on the processing

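The rise of Nat8f5 kept its direction under every alternative in which it was tested, and the fall of Sult5a1 did so too, but its call was lost under most of them. The count of the 37 genes that fell, 1 as reported, was 0 with a pseudocount of 0.1 or 0.5, with no filter, with a filter of 5 FPKM, after rescaling to a common sum or without Mup genes, and with eBayes without trend. The count that rose, 1 as reported, was 0 with no filter (limma adjusted p = 0.051 for Nat8f5) and 0 with the filter of 5 FPKM, which leaves Nat8f5 out. Over all genes 32 were called with no filter and 36 with the 5 FPKM filter, against 76. Sample quality weights called 1151 genes, or 11.5% of all tested genes, 597 rising and 554 falling, with 3 of the 37 rising and 6 falling. Such weights count samples of larger spread less, so these calls are not independent support. Without replicate 1 of both genotypes 1183 genes were called, with 4 rising, 8 falling and 29 without overlap, against 11. Of all tested genes 56.2% then did not overlap, against 15.4%. Leaving out 1 sample at a time gave 29 to 211 calls over all genes, the most without knockout replicate 1, then 117 without wild type replicate 1. In these fits 1 to 2 of the 37 rose, 0 to 2 fell and 12 to 21 did not overlap, with 21 when knockout replicate 1 was left out and 17 when wild type replicate 1 was. The shares of all tested genes were 34.4% and 35.3% in these fits and 20.6% to 22.6% in the other 4. The causes were not tested.

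With the replicate number as a block, 72 genes were called over all genes, and 58 of the 76 calls of the main fit were kept. The same 2 of the 37 passed (limma adjusted p = 0.015 for Nat8f5 and 0.0499 for Sult5a1), so the pairing changed no other call among the 37. Calls in the companion lists are not given for that fit. Estimates near 0 changed sign without being called. Upper quartile scaling gave 0.026 for Ugt1a6b and 0.0256 for Ugt1a9, and quality weights gave 0.0332 for Ugt1a9. Without replicate 1 of both genotypes Ces3a was at 0.0033 and Ugt1a9 at 0.0451. Leaving out 1 sample at a time gave -0.1417 to 0.0566 for Ugt3a2, -0.124 to 0.0295 for Ugt1a6b, -0.1041 to 0.1182 for Ugt1a9 and -0.1454 to 0.001 for Ugt3a1. With 3 samples per genotype and an estimated 4.0 to 8.9 fragments for Nat8f5 per wild type sample, depth limits the size of its fold.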
